A study of Bombus terrestris with 25 samples.

Results

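The comparison described here set queens of the buff-tailed bumblebee Bombus terrestris in diapause against queens that had founded a colony after carbon dioxide treatment. It used 10 of the 25 RNA sequencing libraries of the study, chosen by their labels: 5 diapause queens and 5 founder post CO2 queens, with 1 single queen per library. The tissue was the eviscerated abdomen with the fat body left attached to the body wall. All queens of the study were mated in the laboratory with unrelated males when 5 to 10 days old. Diapause queens were labelled 3 months old (2.5 months in the text that describes the series) and were taken at the end of 9 to 10 weeks in the dark at 4 °C. Founder post CO2 queens were labelled 1.5 months old. They had been anaesthetised with pure CO2 instead of being cooled, again 24 hours later, and were taken about a month afterwards, when they had laid eggs and started a colony. They had been kept warm with sugar solution and pollen at will, whereas the diapause queens had no food in the cold. The 5 queens of each group came from the same 5 genetic lines, 1 queen of each line in each group. In this pair the egg layers were the younger queens. Cold, fasting, CO2 history, age and egg laying changed together and cannot be told apart here. A second pair set 5 mated queens 5 to 10 days old against 5 founder post diapause queens labelled 4 months old. It shared no library with the first and had the older queens as egg layers. Unlike the first pair, its groups did not come from the same set of genetic lines. Its founders were labelled with 9 to 10 weeks at 4 °C and its mated queens with no cold. Cold history, age and egg laying therefore changed together in that pair too. The remaining 5 libraries, of CO2-treated queens, entered the estimate of spread and no test.

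Diapause is a programmed arrest that carries a young mated bumblebee queen through winter: the ovaries stay small, and stores of lipid, glycogen and protein laid down beforehand in the fat body are drawn on slowly. The fat body combines the roles of liver and adipose tissue, making the yolk precursor vitellogenin, the storage proteins called hexamerins, and the blood sugar trehalose. CO2 anaesthesia is used by bumblebee breeders to make a queen skip diapause and begin to lay.

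The table held read counts for exon-sized intervals, which were summed to 3861 genes; the 10 libraries totalled 2624582 to 3626206 counts, and 3793 genes passed the filter on low counts. The table names only part of the transcriptome: 2312 of the 6344 transcript accessions named in the deposited gene models occurred in it, or 36.4%. In a principal component analysis of log2 CPM (counts scaled to a library total of 1000000), the first component held 73.8% of the variance and placed all 5 diapause queens on one side of all 5 founders. Diapause queen 1 stood apart from its group: its score was -2.44, against 67.7, 67.6, 71.0 and 44.4 for diapause queens 2 to 5, and -108, -20.6, -87.1, -18.7 and -13.9 for founders 1 to 5. The founders themselves were split, with founders 1 and 3 far from founders 2, 4 and 5. The same split appeared in the evenness of reads along transcripts. The median log2 ratio of counts in the 3′ part to the 5′ part of 625 transcripts, less its mean over libraries, was 0.110 to 0.139 in the diapause queens, and 0.0875 and 0.0758 in founders 1 and 3, but -0.150 to -0.146 in founders 2, 4 and 5. For this reason values are also given without diapause queen 1, and against founders 2, 4 and 5 alone, an alternative chosen after seeing the data.

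**Figure D1:**
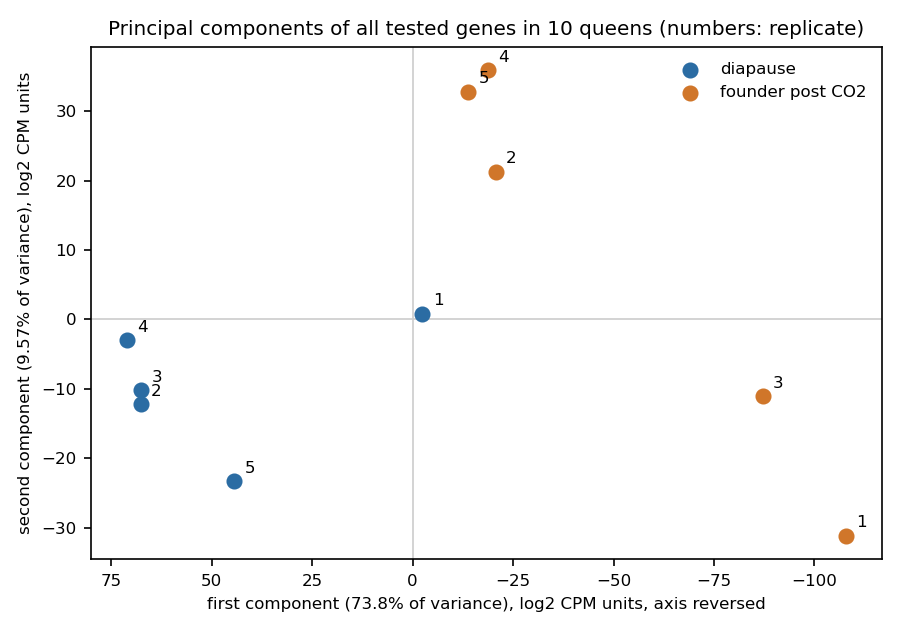
Principal components of log2 CPM of 3793 genes in the 10 queens; the x axis is the first component (reversed, so that diapause lies left), the y axis the second (9.57% of variance), blue points are diapause, orange points founder post CO2, and numbers are replicates. Diapause queen 1 lies at -2.44, between the other diapause queens (44.4 to 71.0) and founders 2, 4 and 5 (-20.6 to -13.9), and founders 1 and 3 lie at the far end.

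Most genes differed between the groups. With edgeR's quasi-likelihood test and a Benjamini-Hochberg adjusted p under 0.05, 2609 of 3793 genes were called (68.8%), 1311 of them higher in diapause (34.6%) and 1298 lower (34.2%). The median log2 fold change over all genes was -0.17, and among called genes its median size was 1.59. A log2 fold change of at least 3 in size was reached by 91 genes higher and 105 genes lower in diapause. In 785 genes (20.7%) the ranges of the 2 groups did not overlap, with diapause above the founders in 518 (13.7%) and below in 267 (7.04%). Diapause queen 1 held this number down: in 1717 of the 2609 called genes its level lay nearer the founder mean than the mean of diapause queens 2 to 5. The other diapause queens did so in 11 to 273 genes, but that mean contains each of them and not queen 1, so the counts are not like for like. Without diapause queen 1, 2786 of 3799 genes were called (73.3%), 1269 higher (33.4%) and 1517 lower (39.9%), and 2102 genes did not overlap. Calls shared in direction with and without that queen numbered 2532, while 77 needed it and 253 appeared only in its absence. The choice of founders moved the counts further. Against founders 2, 4 and 5 alone, 1311 of 3805 genes were called (34.5%), 888 higher (23.3%) and 423 lower (11.1%), and against founders 1 and 3, whose 3′ to 5′ coverage was nearest that of the diapause queens, 2841 of 3819 (74.4%), 1554 higher (40.7%) and 1287 lower (33.7%). Without founder 1 the count was 2029. A fit on the 10 libraries alone called 1225 genes higher and 722 lower.

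The yolk precursor and a storage protein stood higher in the queens that were not laying. The gene LOC100643258, annotated vitellogenin-6-like and located on scaffold Group13.5, bases 4550502 to 4556727 of the assembly used by the authors, had 349, 6936, 8241, 2668 and 7503 CPM in diapause queens 1 to 5, against 29.1, 4.02, 19.1, 19.2 and 21.4 CPM in founders 1 to 5. The groups did not overlap, and diapause queen 1 was the lowest of its group although still above every founder. The log2 fold change was 8.11 ± 1.12 (SE; adjusted p = 1.36e-05, edgeR), 8.36 without diapause queen 1 and 8.46 against founders 2, 4 and 5. Vitellogenin is the yolk precursor taken up by growing eggs, and in honey bees it also serves as a long-lived store and antioxidant. In the libraries outside this pair its mean was 1645 CPM in mated queens, 85.7 CPM in CO2-treated queens and 19.2 CPM in founder post diapause queens.

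Hexamerins are amino acid stores that insects build up before a fast. The hexamerin-like gene LOC100650745 had 3424, 2690.2, 1199, 733 and 2816 CPM in diapause queens, against 25.4, 1096, 39.9, 28.2 and 76.1 CPM in founders. Founder 2 alone reached the diapause range, so the groups overlapped. Its log2 fold change of 3.10 ± 1.15 (adjusted p = 0.0215) lost its call when founder 1, 3 or 5 was left out, and against founders 2, 4 and 5 the adjusted p was 0.138. The other hexamerin-like gene in the table, LOC100650380, ran the other way at a low level: 4.08, 4.51, 5.604, 2.33 and 4.66 CPM in diapause queens and 4.51, 8.36, 41.01, 24.9 and 18.03 CPM in founders (log2 fold change -2.18 ± 0.49, adjusted p = 0.000919), with founder 1 inside the diapause range. In all, 2 of the 3 genes for yolk and storage proteins rose and 1 fell.

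The gene for phosphoenolpyruvate carboxykinase, PEPCK (scaffold Group3.4, bases 600027 to 605477), the enzyme that opens the synthesis of glucose from amino acids, showed the next contrast. It had 7711, 12688, 11462, 10192 and 9942 CPM in diapause queens, against 21.3, 259.7, 17.3, 6.57 and 21.7 CPM in founders. Every diapause queen, number 1 included, lay far above the highest founder. The log2 fold change was 7.31 ± 1.20 (adjusted p = 7.56e-05) and 6.80 against founders 2, 4 and 5. Fructose-1,6-bisphosphatase (LOC100650704), a later step of the same pathway named after its values were seen, had 717, 2335, 3126, 1746 and 4770.4 CPM in diapause queens and 268, 320.3, 394, 106 and 29.3 CPM in founders (log2 fold change 3.51 ± 0.92, adjusted p = 0.0028), again without overlap. Hexokinase type 2-like (LOC100644228), which traps glucose in the cell, rose as well: 941, 1533, 1288, 1401 and 1023 CPM in diapause queens, against 110.0, 492, 293, 444 and 331 CPM in founders (log2 fold change 1.89 ± 0.39, adjusted p = 0.000483).

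These 3 were the risen genes of the list for glycolysis, gluconeogenesis and glycogen, in which 6 of 12 tested genes fell. Enolase (LOC100648533), a reversible step used in both making and breaking down glucose, had 1873, 1136, 1180.5, 1325 and 917 CPM in diapause queens and 2205, 3051, 6989, 4529 and 2721 CPM in founders, with diapause below every founder (log2 fold change -1.60 ± 0.40, adjusted p = 0.00219). Glyceraldehyde-3-phosphate dehydrogenase (LOC100648830), likewise reversible, had 2869.8, 1669, 1925, 1874 and 1786 CPM in diapause queens and 6078, 3739.9, 11405, 4314 and 2934 CPM in founders (log2 fold change -1.49 ± 0.39, adjusted p = 0.0028); diapause queen 1 lay just below the lowest founder, and against founders 2, 4 and 5 the adjusted p was 0.0982. Lactate dehydrogenase (LOC100649579), which regenerates NAD when oxygen is short and was named after its values were seen, had 66.1, 115, 284, 75.6 and 58.7 CPM in diapause queens, against 457, 894, 1196, 1577 and 723 CPM in founders (log2 fold change -3.02 ± 0.82). A further 3 genes fell, also named after their values were seen. They were glucose-6-phosphate isomerase (LOC100643448, -1.51 ± 0.43), phosphoglucomutase-2 (LOC100648849, -1.48 ± 0.46) and phosphoglycerate mutase 2 (LOC100651143, -1.70 ± 0.48). The list's median log2 fold change was -1.11, beside -0.17 for all genes; without diapause queen 1 the counts were 3 higher and 7 lower, and against founders 2, 4 and 5 3 and 2.

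**Figure D2:**
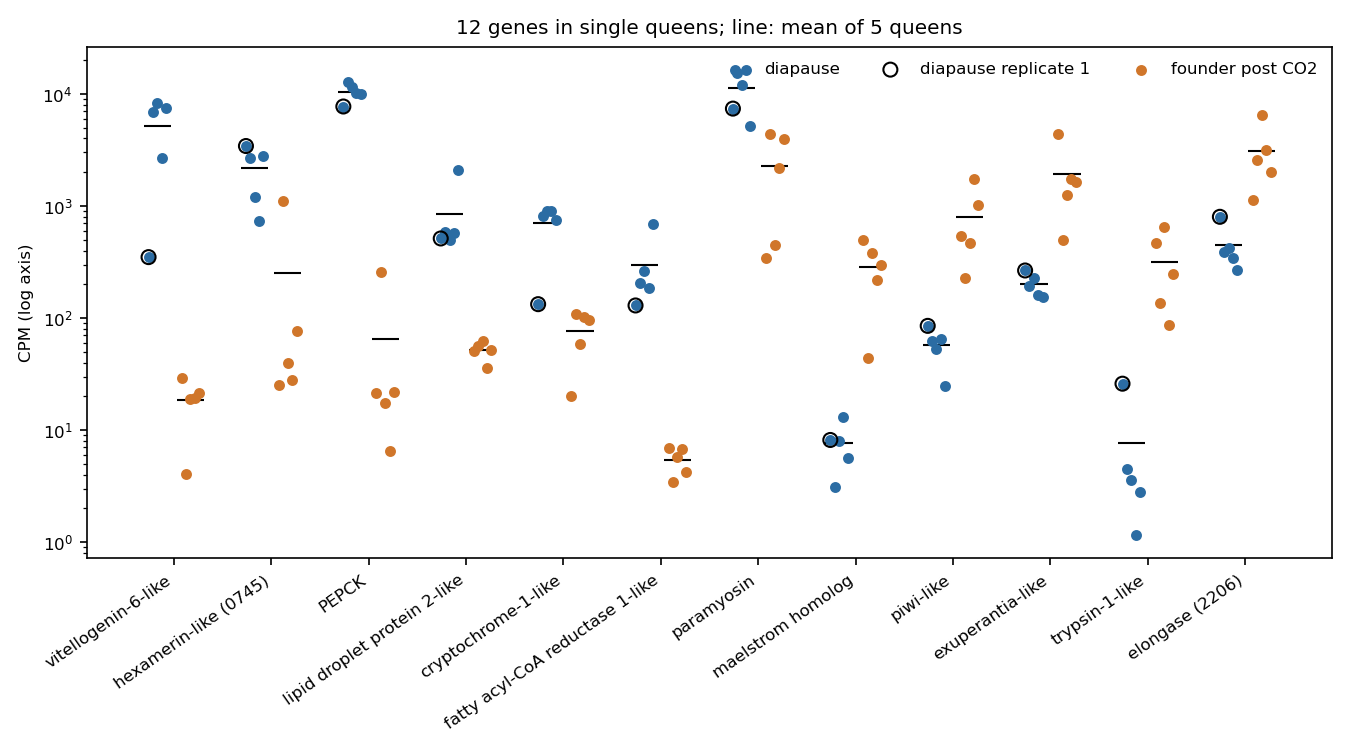
CPM (y axis, logarithmic) of 12 genes (x axis) in single queens: blue points diapause, with replicate 1 ringed, orange points founder post CO2, and black lines the mean of 5 queens. PEPCK lies at 7711 to 12688 CPM in diapause and 6.57 to 259.7 CPM in founders, hexamerin-like overlaps through founder 2, and the ringed queen is the lowest diapause queen for vitellogenin-6-like and cryptochrome-1-like.

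Sugar carriers moved in both directions, as did all genes, of which 34.6% were higher and 34.2% lower. The share of the list called, 68.2%, was near the 68.8% over all genes. Of 22 tested genes for trehalose, polyols and sugar transport, 6 rose and 9 fell (median log2 fold change -1.06; 5 and 10 without diapause queen 1, 5 and 9 against founders 2, 4 and 5). Facilitated trehalose transporters of the Tret1 type, which in other insects release trehalose from the fat body into the blood, supplied both extremes. LOC100644978 had 6.12, 11.1, 22.4, 8.53 and 8.39 CPM in diapause queens, against 231, 109.9, 206.8, 316 and 645 CPM in founders, with no overlap (log2 fold change -4.74 ± 0.64, adjusted p = 1.24e-05). LOC100650588 showed the opposite order, with 10.5, 91.7, 70.9, 95.7 and 57.8 CPM in diapause queens and 6.97, 4.64, 8.63, 9.62 and 9.298 CPM in founders (log2 fold change 3.05 ± 0.52, adjusted p = 0.000108). In that gene diapause queen 1 sat just above the founders. LOC100649149 also rose (2.57 ± 0.48) and LOC100648799 also fell (-2.71 ± 0.46); which of these carry trehalose in the bumblebee is not given by their names.

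The lists for lipid breakdown and for fatty acid synthesis each held more genes lower than higher, with exceptions at the top of each. Lipid storage droplets surface-binding protein 2-like (LOC100643850), a coat protein of fat droplets counted in the breakdown list, had 512, 579.6, 499, 575 and 2071 CPM in diapause queens, against 50.9, 56.02, 62.95, 36.1 and 52.1 CPM in founders. No queen of one group entered the range of the other, and diapause queen 5 stood highest (log2 fold change 4.04 ± 0.66, adjusted p = 7.04e-05). Of 16 tested genes for lipid breakdown 2 rose, this gene included, and 6 fell (median -0.89; 2 and 9 without diapause queen 1). The 37.5% lower was near the 34.2% over all genes. Pancreatic lipase-related protein 2-like (LOC100645916) was the other and rose by 2.86 ± 0.63 on the log2 scale, while a diacylglycerol lipase (LOC100642748) fell, at 474, 159, 116, 89.9 and 66.5 CPM in diapause queens and 195, 681, 487, 857 and 645 CPM in founders; there diapause queen 1 and founder 1 crossed into the other group's range. In fatty acid synthesis, elongation and desaturation 2 of 19 genes rose and 10 fell (median -0.97), with 13 lower without diapause queen 1 and 9 lower against founders 2, 4 and 5.

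Elongases, which lengthen fatty acid chains, included genes of each direction. The elongase LOC100652206 had 799.7, 389, 424, 347 and 267 CPM in diapause queens, against 1124, 2559, 6542, 3164 and 2012 CPM in founders, and did not overlap (log2 fold change -2.79 ± 0.42, adjusted p = 2.82e-05). The elongase LOC100646637 was higher in diapause queens 2 to 5 but not in queen 1, with 185, 3562, 3724, 2901 and 2055 CPM in diapause and 581, 1046, 340.3, 660.2 and 647 CPM in founders (log2 fold change 1.92 ± 0.58, adjusted p = 0.00711; 2.12 without queen 1). A Delta(11) acyl-CoA desaturase-like gene (LOC100649922), which adds double bonds, rose by 2.08 ± 0.36. An estradiol 17-beta-dehydrogenase 12-like gene (LOC100642272), whose mammalian relative works in fatty acid elongation, fell, at 3256, 629, 1293, 806 and 304 CPM in diapause queens and 3742, 6900.3, 16595, 6771 and 3368 CPM in founders (log2 fold change -2.57 ± 0.60, adjusted p = 0.00121).

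Fatty acyl-CoA reductases make fatty alcohols for waxes, cuticular coatings and bee scents. Of 14 tested members 2 rose and 6 fell (median -1.0). The risen ones lie next to each other on scaffold GroupUn442, at bases 8615 to 11231 and 11304 to 14096. Whether they are separate genes was not tested. LOC100642508 had 129, 206, 265, 183 and 693 CPM in diapause queens, against 6.97, 3.405, 5.76, 6.804 and 4.23 CPM in founders, and LOC100647527 63.5, 111, 154, 97.3 and 298 CPM, against 2.46, 2.48, 2.88, 3.05 and 2.54 CPM. In both genes all diapause queens exceeded all founders and queen 5 was the highest (log2 fold changes 5.76 ± 0.73 and 5.73 ± 0.65, adjusted p = 6.80e-06 and 2.56e-06). LOC100643779 had the opposite order, with 1427, 195, 179, 140.3 and 153 CPM in diapause queens and 4659.7, 4013, 7849, 4345 and 2462 CPM in founders (log2 fold change -3.48 ± 0.63, adjusted p = 0.000179; -4.86 without diapause queen 1, the highest of its group). LOC100648083 fell likewise (-2.52 ± 0.47). The names of these genes do not say which alcohols they make, and near-identical copies may share reads.

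Genes of the female germ line were lower in diapause. Exuperantia-like (LOC100646270), which in Drosophila localises maternal RNA in the egg, had 265, 191.01, 225, 161 and 155 CPM in diapause queens, against 4417, 495, 1257, 1735 and 1635 CPM in founders. Piwi-like (LOC100646008), of the pathway that silences transposons in germ cells, had 85.1, 61.8, 52.4, 64.7 and 24.5 CPM in diapause queens and 544, 228, 465, 1729 and 1010.1 CPM in founders. Neither gene overlapped between the groups (log2 fold changes -3.26 ± 0.53 and -3.78 ± 0.60, adjusted p = 6.88e-05 and 5.41e-05). The vitellogenin receptor-like gene (LOC100649042), the door through which yolk enters the oocyte, had 91.8, 50.7, 56.04, 427 and 24.2 CPM in diapause queens, against 1198, 856, 941, 3666 and 3262 CPM in founders (log2 fold change -3.93 ± 0.84, adjusted p = 0.000632); it was named after its values were seen. Nanos homolog 3-like (LOC100642642), a germ cell RNA regulator, was not called, at 187, 549, 453, 817 and 325 CPM in diapause queens and 130.1, 159.7, 86.3, 520.1 and 384 CPM in founders. These 4 markers summed to 528 to 1470.2 CPM in diapause queens and 1739.8 to 7651 CPM in founders, and 3 of the 4 were lower also without diapause queen 1 and against founders 2, 4 and 5.

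A further 3 genes, 2 of them with known germ line roles, were among the 8 with the smallest p that were lower in diapause. Maelstrom (LOC100644702), a partner of the piwi pathway, had 8.16, 3.13, 8.01, 13.2 and 5.59 CPM in diapause queens, against 493, 43.6, 383, 219 and 294 CPM in founders (log2 fold change -5.23 ± 0.61, adjusted p = 2.56e-06). Cortex-like (LOC100652120), which in Drosophila completes female meiosis, fell by 4.61 ± 0.59 on the log2 scale, and bcl-2-related ovarian killer protein-like (LOC100648118), a regulator of cell death, by 2.83 ± 0.36. Founder 2 was the lowest founder in each of the 3. The dissection removed the viscera, and how much ovary remained on the body wall was not tested. In whole-tissue RNA fewer cells of a type and less RNA per cell cannot be told apart, here and for every list that follows.

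Genes for oxidative phosphorylation and mitochondrial ribosomal proteins were mostly lower, by numbers that varied with the founders and the libraries in the fit. Of 33 tested genes for oxidative phosphorylation, the respiratory chain and ATP synthase, 0 rose and 27 fell, with a median log2 fold change of -1.48; without diapause queen 1, 30 fell. The mean log2 CPM of the list, less its mean over the 10 queens, was 0.53, -0.96, -1.19, -1.28 and -0.44 in diapause queens 1 to 5, against 1.76, 0.27, 1.54, -0.11 and -0.12 in founders 1 to 5. Diapause queens 2 to 5 were low and founders 1 and 3 high, while diapause queen 1 exceeded founders 2, 4 and 5. Against founders 2, 4 and 5 0 of 33 members were called lower (median -0.42), and against founders 1 and 3 31 of 33. The fit on the 10 libraries alone, with all founders kept, called 14 of 33 lower (median -1.31). NADH dehydrogenase subunit C2-like (LOC100644198) of complex I had 142, 18.8, 12.8, 16.7 and 38.2 CPM in diapause queens and 1081, 132, 531, 91.5 and 99.7 CPM in founders (log2 fold change -3.07 ± 0.74, adjusted p = 0.00157, but 0.154 against founders 2, 4 and 5).

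Mitochondrial ribosomal proteins, which make the proteins coded in mitochondrial DNA, followed the same pattern: 28 of 30 fell and 0 rose (median -1.37; 28 lower without diapause queen 1), against 2 of 30 with founders 2, 4 and 5, and 28 of 30 with founders 1 and 3. In the fit on the 10 libraries alone 14 of 30 fell. A member called in both founder subsets was 28S ribosomal protein S29 (LOC100647568), with 817, 338, 336, 297 and 726 CPM in diapause queens and 4857, 1334, 3300.1, 1414 and 1988 CPM in founders, no overlap, and a log2 fold change of -2.36 ± 0.41 (adjusted p = 0.000114). In the citrate cycle 3 of 15 genes rose and 5 fell (median -0.42). The 33.3% lower was near the 34.2% over all genes. Without diapause queen 1 the counts were 3 and 9, and against founders 2, 4 and 5 they were 2 and 2 (median -0.16). Citrate synthase (LOC100645344), the entry enzyme, fell by 1.91 ± 0.50 and mitochondrial malate dehydrogenase (LOC100646150) by 1.91 ± 0.46, whereas a probable malate dehydrogenase read at a low level (LOC100650538) rose by 2.81 ± 0.52. Peroxisomal membrane protein PMP34-like (LOC100644134), a carrier of the organelle that shortens long fatty acids, had 312, 119, 144, 94.96 and 141.3 CPM in diapause queens, against 1323, 1023, 2265, 900.2 and 819 CPM in founders (log2 fold change -2.96 ± 0.39, adjusted p = 1.05e-05), and did not overlap.

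The proteasome, the chamber that degrades tagged proteins, was lower against both founder subsets. Of 22 tested subunits 19 fell and 0 rose (median log2 fold change -1.50), in 11 of them without overlap; 21 fell without diapause queen 1, 14 against founders 2, 4 and 5 and 17 against founders 1 and 3. The list's mean log2 CPM, centred as before, was 0.11, -1.04, -1.06, -1.09 and -0.57 in diapause queens and 0.87, 0.45, 1.73, 0.48 and 0.12 in founders, so diapause queen 1 lay just below founder 5. Subunit alpha type-3-like (LOC100645639) had 505, 149, 165, 171 and 265 CPM in diapause queens, against 1516, 653, 2444, 754 and 583 CPM in founders (log2 fold change -2.24 ± 0.43, adjusted p = 0.000262). Non-ATPase regulatory subunit 8-like (LOC100647428) of the lid had 317, 112, 102, 132 and 171 CPM in diapause queens and 1029, 470.5, 1643, 420.2 and 374 CPM in founders (log2 fold change -2.24 ± 0.43). The enzymes that attach and remove ubiquitin did not share this pattern: 18 of 52 rose and 21 fell (median -0.60). The E3 ligase MIB2-like (LOC100647885) rose by 2.48 ± 0.52, and ubiquitin-like protein 7-like (LOC100647989) fell by 2.09 ± 0.37.

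In the fit on all 25 libraries, lists for making and folding proteins held more genes lower than higher, and the numbers varied with the alternatives. Among translation factors and tRNA synthetases 14 of 20 fell and 0 rose (median -1.08), with 16 lower without diapause queen 1 but 2 against founders 2, 4 and 5. Initiation factor 4E-like (LOC100647630), the cap-binding protein, had 164, 59.4, 51.2, 45.4 and 98.8 CPM in diapause queens, against 536, 169.9, 459, 267 and 223 CPM in founders (log2 fold change -1.98 ± 0.36, adjusted p = 0.000185). In the secretory pathway of the endoplasmic reticulum 1 of 23 rose and 18 fell (median -1.02; 0 and 5 against founders 2, 4 and 5). Protein disulfide-isomerase A6-like (LOC100652249), which forms disulfide bonds in secreted proteins, had 533, 234, 240.2, 232 and 433 CPM in diapause queens and 1411, 1149, 2045, 688 and 1022 CPM in founders, without overlap (log2 fold change -1.92 ± 0.40). Of 23 heat shock proteins and chaperones 3 rose and 13 fell (median -0.70; 2 and 3 against founders 2, 4 and 5), and of 13 cytosolic ribosomal proteins 1 rose and 6 fell (1 and 1). In the fit on the 10 libraries alone 0 of 20 translation factors rose and 7 fell. The counts were 1 and 6 of 23 in the secretory pathway, 3 and 3 of 23 chaperones, and 1 and 2 of 13 ribosomal proteins. Over all genes that fit called 1225 of 3728 higher and 722 lower. The genes of the 36 lists numbered 673, of which 461 were called. That share, 68.5%, was close to the 68.8% over all genes. Against founders 2, 4 and 5 it was 215 genes.

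**Figure D3:**
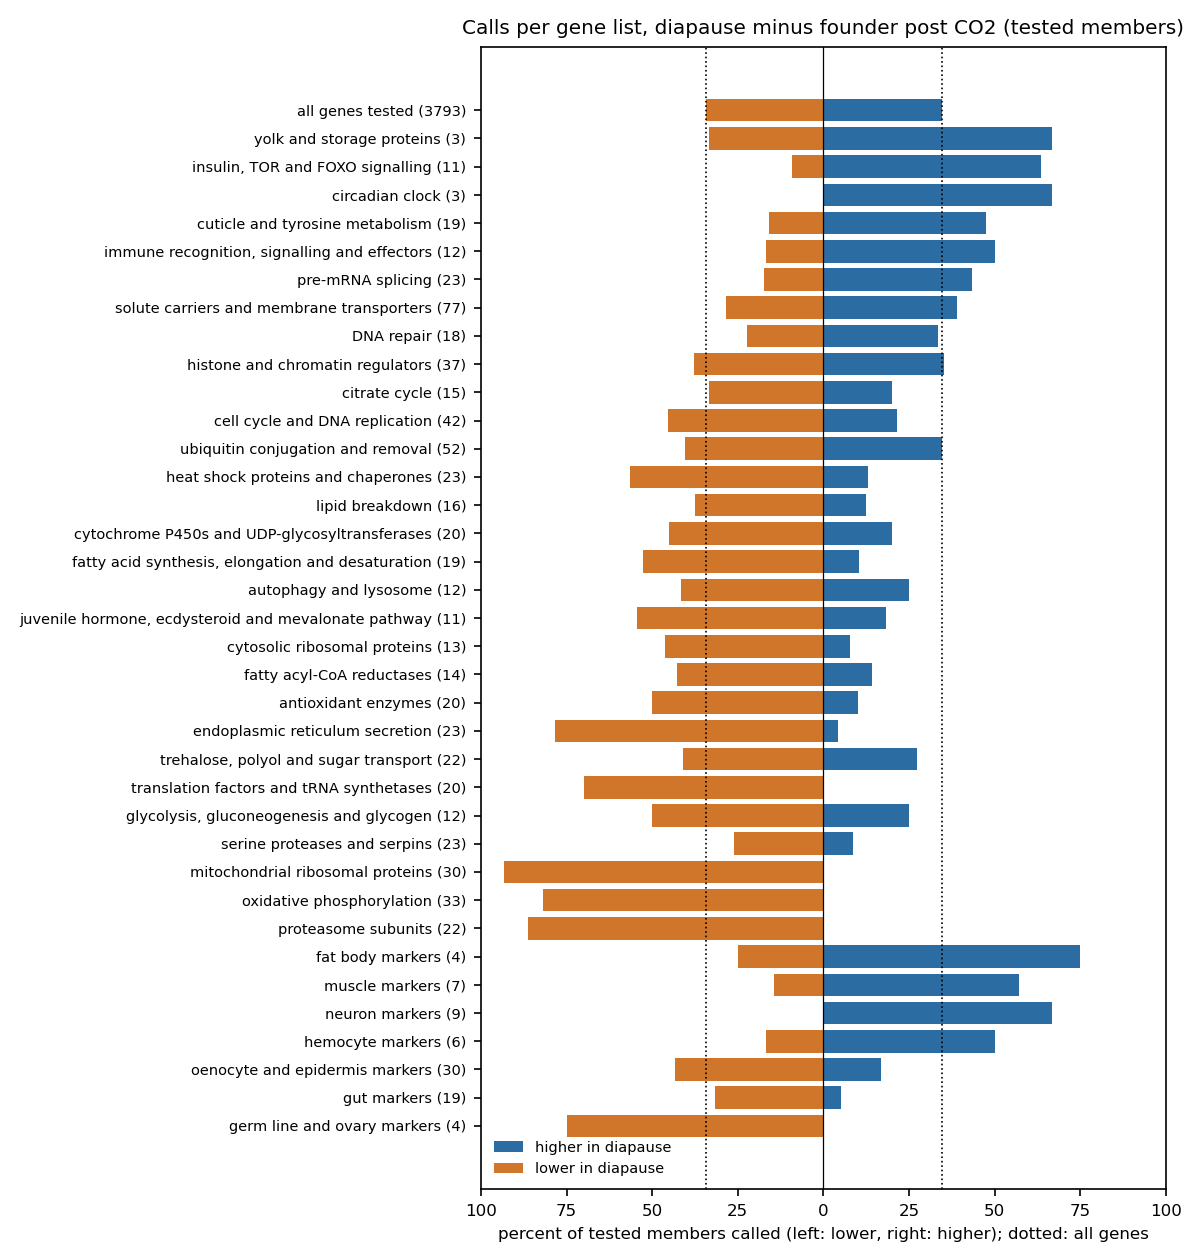
Share of tested members called in each of 36 gene lists and over all genes; bars to the left are the percent lower in diapause and bars to the right the percent higher (x axis, percent), numbers in parentheses are tested members, and dotted lines mark all genes (34.6% higher, 34.2% lower). The 3 longest bars to the left are mitochondrial ribosomal proteins, the proteasome and oxidative phosphorylation, with 0 members higher in each.

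Most genes on the list for insulin, TOR and FOXO signalling, drawn up from product names, were higher in diapause. Insulin signalling and the TOR kinase couple food to growth and, in many insects, to egg maturation. Of 11 tested genes 7 rose and 1 fell (median 1.62), the same counts held without diapause queen 1, and against founders 2, 4 and 5 6 rose and 0 fell. Ribosomal protein S6 kinase alpha-5-like (LOC100647851) had 352, 1446, 1346, 1293 and 1041 CPM in diapause queens, against 86.6, 297, 113, 293 and 327 CPM in founders (log2 fold change 2.29 ± 0.44, adjusted p = 0.000257). The groups stayed apart by a narrow margin, with diapause queen 1 just above founder 5. S6 kinase delta-1-like (LOC100649545) rose by 1.72 ± 0.29. Whether either of these kinases acts in insulin or TOR signalling is not given by their names and was not tested. The insulin-like receptor (LOC100650952), named after its values were seen, had 51.9, 178, 210.2, 306 and 92.3 CPM in diapause queens and 9.03, 30.6, 14.03, 47.9 and 81.1 CPM in founders (log2 fold change 2.19 ± 0.56, adjusted p = 0.00225), with diapause queen 1 below founder 5.

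Downstream members chosen in the same way, after their values were seen, were the receptor substrate (LOC100644779, 1.54 ± 0.51 on the log2 scale) and the kinase PDK1 (LOC100649731, 1.83 ± 0.48); both rose. The transcription factor FOXO (LOC100643217), which insulin signalling keeps out of the nucleus, was not called: it had 227, 217, 263, 224 and 177 CPM in diapause queens and 18.9, 247, 32.4, 243 and 299.8 CPM in founders, where founders 1 and 3 were low and the other 3 lay at the level of the diapause queens. The TOR complex 2 subunit MAPKAP1-like (LOC100650595) was the fallen member (log2 fold change -0.71 ± 0.26), and lost its call without founder 1 or 3.

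Hormone genes were mixed. Juvenile hormone, built through the mevalonate pathway, drives egg production in bumblebees, and ecdysteroids act on the ovary and the moult. Of 11 genes 2 rose and 6 fell (median -0.97; 1 and 3 against founders 2, 4 and 5). The rate-limiting mevalonate enzyme HMG-CoA reductase (LOC100651787) had 284, 168, 146, 171 and 205 CPM in diapause queens, against 476, 403, 306, 366 and 362 CPM in founders, and did not overlap (log2 fold change -0.97 ± 0.23, adjusted p = 0.00145). Ecdysone-induced protein 75B (LOC100644185), a nuclear receptor switched on by ecdysone, had 253, 1958, 2478, 1712 and 897 CPM in diapause queens and 14.4, 269.6, 26.98, 363 and 347 CPM in founders (log2 fold change 2.84 ± 0.85, adjusted p = 0.00662); queen 1 fell inside the founder range. An ecdysteroid glucosyltransferase-like gene (LOC100647883), of an enzyme family that can inactivate ecdysteroids, fell by 3.49 ± 0.74, and cytochrome P450 315a1 (LOC100644009), an enzyme of ecdysone synthesis in Drosophila, had 4.37, 6.25, 12.8, 14.7 and 4.04 CPM in diapause queens, against 263, 78.9, 145, 318 and 472 CPM in founders (log2 fold change -4.92 ± 0.77, adjusted p = 4.72e-05).

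The clock gene cryptochrome-1-like (LOC100647270), a repressor of the daily clock in bees, had 133, 814, 903, 909 and 749.8 CPM in diapause queens, against 20.1, 108, 58.99, 103 and 95.8 CPM in founders. All diapause queens lay above all founders, but queen 1 exceeded founder 2 only slightly while queens 2 to 5 formed a tight group (log2 fold change 3.18 ± 0.45, adjusted p = 1.72e-05; 3.33 without queen 1 and 2.82 against founders 2, 4 and 5). Casein kinase I gamma-3-like (LOC100642629), counted in the clock list by its product name, rose by 1.53 ± 0.44. Whether this kinase acts in the clock was not tested. The gene period was not called (log2 fold change 1.10 ± 0.63, edgeR adjusted p = 0.116). The labels give no hour of sampling, and the cold queens had been in the dark.

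Immune genes moved in both directions. Of 12 genes for recognition, signalling and effectors 6 rose and 2 fell (median 0.84; 6 and 2 without diapause queen 1, 5 and 0 against founders 2, 4 and 5). Protein toll-like (LOC100651716), a receptor of the response to fungi and bacteria, had 369, 2293, 1871, 788 and 702 CPM in diapause queens, against 43.5, 178, 58.3, 190.3 and 208 CPM in founders, and serpin B13-like (LOC100647974), of a family of protease inhibitors, 235, 1599.7, 1269, 814 and 448 CPM, against 58.3, 155, 79.9, 199 and 215 CPM. Neither overlapped (log2 fold changes 3.15 ± 0.54 and 2.62 ± 0.48, adjusted p = 0.000108 and 0.000185). The antibacterial peptide defensin (Def) was lower, with 51.3, 54.5, 37.2, 60.1 and 7.45 CPM in diapause queens and 354, 239.9, 733, 49.5 and 20.3 CPM in founders (log2 fold change -2.73 ± 1.04, adjusted p = 0.0242). Its ranges overlapped widely, and the call was lost without diapause queen 5 or founder 3. Beta-1,3-glucan-binding protein 1-like (LOC100647662), a sensor of fungal walls, fell by 1.52 ± 0.57 and lost its call without diapause queen 2, 4 or 5 or founder 3.

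The 8 genes with the smallest p among those higher in diapause without overlap included receptors, channels and transporters of the cell membrane. The share of such genes over all genes was not counted. Acetylcholine receptor subunit alpha-like (LOC100648987), a channel of nerve and muscle, had 211, 729, 787, 359 and 494 CPM in diapause queens, against 34.9, 61.3, 44.6, 43.6 and 25.6 CPM in founders (log2 fold change 3.62 ± 0.37, adjusted p = 9.12e-07). Innexin shaking-B-like (LOC100648671), a gap junction protein of electrical synapses, had 17.8, 92.7, 64.05, 102 and 71.1 CPM in diapause queens and 4.92, 5.88, 5.04, 7.04 and 5.35 CPM in founders (log2 fold change 3.61 ± 0.38, adjusted p = 9.12e-07). In both genes diapause queen 1 was the lowest diapause queen and was still clear of the founders. An organic cation transporter-like gene (LOC100648294) had 766, 2009.8, 1792, 1116 and 1227 CPM in diapause queens, against 25.03, 111, 54.3, 46.5 and 54.4 CPM in founders (log2 fold change 4.57 ± 0.49). The lipid exporter ABCG1-like (LOC100644985) had 103, 396, 377, 279 and 398 CPM in diapause queens and 4.92, 32.2, 21.2, 16.7 and 18.9 CPM in founders (log2 fold change 4.04 ± 0.47). The netrin receptor UNC5C-like (LOC100642219), an axon guidance receptor, rose by 4.60 ± 0.55, the small GTPase Rab-32-like (LOC100649740) by 4.04 ± 0.50 and BRCA1-associated protein-like (LOC100645859) by 3.73 ± 0.44.

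At the other end, 15-hydroxyprostaglandin dehydrogenase-like (LOC100643900), of an enzyme family that oxidises prostaglandins in mammals, had 4.37, 2.78, 12.4, 5.43 and 3.73 CPM in diapause queens, against 1084, 88.5, 428, 384 and 454 CPM in founders (log2 fold change -6.41 ± 0.75, adjusted p = 2.56e-06). Peroxisomal spermine/spermidine oxidase-like (LOC100649586), which breaks down polyamines, had 4.95, 5.21, 5.204, 13.2 and 3.73 CPM in diapause queens and 190.8, 59.7, 162, 194 and 242 CPM in founders (log2 fold change -4.72 ± 0.48, adjusted p = 9.12e-07). Both were low in every diapause queen and lowest among the founders in founder 2. Over 77 solute carriers and membrane transporters 30 rose and 22 fell (median 0.17), close to the shares over all genes; with upper quartile scaling the counts were 23 and 23.

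Cuticle and tyrosine genes leaned upward, with 9 of 19 higher and 3 lower (median 1.15; 9 and 5 without diapause queen 1, 6 and 2 against founders 2, 4 and 5). Laccase-2-like (LOC100644713), which tans the cuticle, had 4025, 8264, 7571, 5941 and 4381 CPM in diapause queens, against 347, 2864, 717, 3571 and 1895 CPM in founders (log2 fold change 1.68 ± 0.56, adjusted p = 0.0118, but 0.1 against founders 2, 4 and 5). Protein yellow-like (LOC100651683), of the pigment pathway, rose by 3.55 ± 0.59, and 4-hydroxyphenylpyruvate dioxygenase-like (LOC100646582), which degrades tyrosine, fell by 2.32 ± 0.70. A cuticle protein gene of the LCP-17 type (LOC100643233) had 5.24, 4.17, 58.4, 66.7 and 3.11 CPM in diapause queens and 1.64, 1.55, 1.799, 0.469 and 1.69 CPM in founders: the groups did not overlap, and diapause queens 3 and 4 were far above the other 3 diapause queens.

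Enzymes of detoxification and defence against oxidation included genes of each direction. Of 20 cytochrome P450s and UDP-glycosyltransferases 4 rose and 9 fell (median -0.89; 4 and 8 against founders 2, 4 and 5), and of 20 antioxidant enzymes 2 rose and 10 fell (median -1.02; 1 and 14 without diapause queen 1, 2 and 3 against founders 2, 4 and 5). The share lower over all genes was 34.2%. In the fit on the 10 libraries alone 4 P450s and UDP-glycosyltransferases rose and 6 fell, and 1 antioxidant enzyme rose and 4 fell. Over all genes that fit called 722 of 3728 lower. Glutathione S-transferase 1-like (LOC100644200) had 58.8, 76.1, 50.4, 67.4 and 81.1 CPM in diapause queens, against 1664, 144, 304, 220.1 and 311 CPM in founders, without overlap (log2 fold change -2.98 ± 0.58, adjusted p = 0.000327). The copper-zinc superoxide dismutase (LOC100646662), which removes superoxide, had 3215, 1758, 1722, 1581 and 3169.8 CPM in diapause queens and 5760.5, 5551, 14527, 4067 and 2436 CPM in founders. Those ranges overlapped through founder 5, and the call (-1.50 ± 0.43, adjusted p = 0.0052) was lost without founder 3.

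Lists of the nucleus were divided. Of 42 genes for the cell cycle and DNA replication 9 rose and 19 fell (median -0.53; 5 and 5 against founders 2, 4 and 5). The mitotic kinase polo (LOC100645092) had 15.4, 9.38, 16.01, 14.3 and 15.2 CPM in diapause queens, against 58.7, 41.2, 60.4, 78.8 and 76.1 CPM in founders (log2 fold change -2.16 ± 0.35, adjusted p = 6.42e-05), while cyclin-D2-like (LOC100642210), of entry into the cycle, had 116, 604, 717, 979.9 and 527 CPM, against 8.62, 56.3, 7.19, 39.6 and 42.8 CPM (log2 fold change 4.24 ± 0.62). Neither gene overlapped between the groups. Of 23 pre-mRNA splicing genes 10 rose and 4 fell (median 0.73), but with upper quartile scaling 4 rose and 5 fell, and against founders 2, 4 and 5 3 and 0. Chromatin regulators counted 13 higher and 14 lower of 37 (35.1% and 37.8%), near the shares over all genes. DNA repair counted 6 and 4 of 18 (33.3% and 22.2%), and autophagy and lysosome 3 and 5 of 12 (25.0% and 41.7%). Over all genes 34.6% were higher and 34.2% lower. Histone H2A-like (LOC100645738) had 0.583, 1.04, 1.601, 1.94 and 1.55 CPM in diapause queens, against 57.03, 5.26, 31.7, 15.2 and 31.6 CPM in founders; poly(A) selection leaves most histone mRNA out.

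Markers of other tissues moved between the groups beside these lists. Muscle markers summed to 13045 to 34609 CPM in diapause queens and 1553 to 11231 CPM in founders. Of 7 tested, 4 rose and 1 fell, but without diapause queen 1 4 rose and 3 fell. Over all genes 34.6% were higher and 34.2% lower. Paramyosin (LOC100644720), of the thick filament, had 7385, 15432, 12019, 16249.7 and 5175 CPM in diapause queens, against 343, 4374, 452, 2167 and 3989 CPM in founders (log2 fold change 2.31 ± 0.60, adjusted p = 0.00256), and Mlp84B-like (LOC100646273), of the Z-disc, 6044, 15768, 11345, 12963 and 7060.5 CPM, against 354, 3399, 1172, 1414 and 2106 CPM (log2 fold change 2.65 ± 0.48). Founders 1 and 3 were the lowest of all queens in both genes. Arginine kinase (Argk), the energy buffer of muscle, was not called, with a log2 fold change of -0.26 ± 0.47. Neuron markers summed to 815 to 1561 CPM in diapause queens and 265 to 544 CPM in founders. Of these 6 of 9 were higher and 0 lower, also without diapause queen 1.

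Gut markers summed to 339.8 to 4475 CPM in diapause queens and 3269 to 9121 CPM in founders; 1 of 19 rose and 6 fell, and without diapause queen 1 9 fell. The 31.6% lower was near the 34.2% over all genes. Trypsin-1-like (LOC100646569), a digestive protease, had 25.9, 4.51, 3.603, 1.16 and 2.795 CPM in diapause queens, against 470.2, 136, 642, 87.04 and 245 CPM in founders (log2 fold change -5.35 ± 0.73, adjusted p = 1.31e-05), with diapause queen 1 the highest of its group. Aminopeptidase N-like (LOC100648041), of the gut lining, fell by 4.28 ± 0.63. Hemocyte markers summed to 1605 to 2694 CPM in diapause queens and 1496 to 2707 CPM in founders (3 of 6 higher, 1 lower). Markers of oenocytes and epidermis summed to 8565 to 22995 CPM and 22495 to 69366 CPM (5 of 30 higher, 13 lower). Without diapause queen 1 the counts were 2 and 1 of 6, and 5 and 18 of 31. Fat body markers, which are vitellogenin, both hexamerins and PEPCK, summed to 11489 to 22318 CPM in diapause queens and 78.8 to 1368 CPM in founders. No marker list was at 0 in either group, and the part of cell composition in the changes above was not tested.

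**Figure D4:**
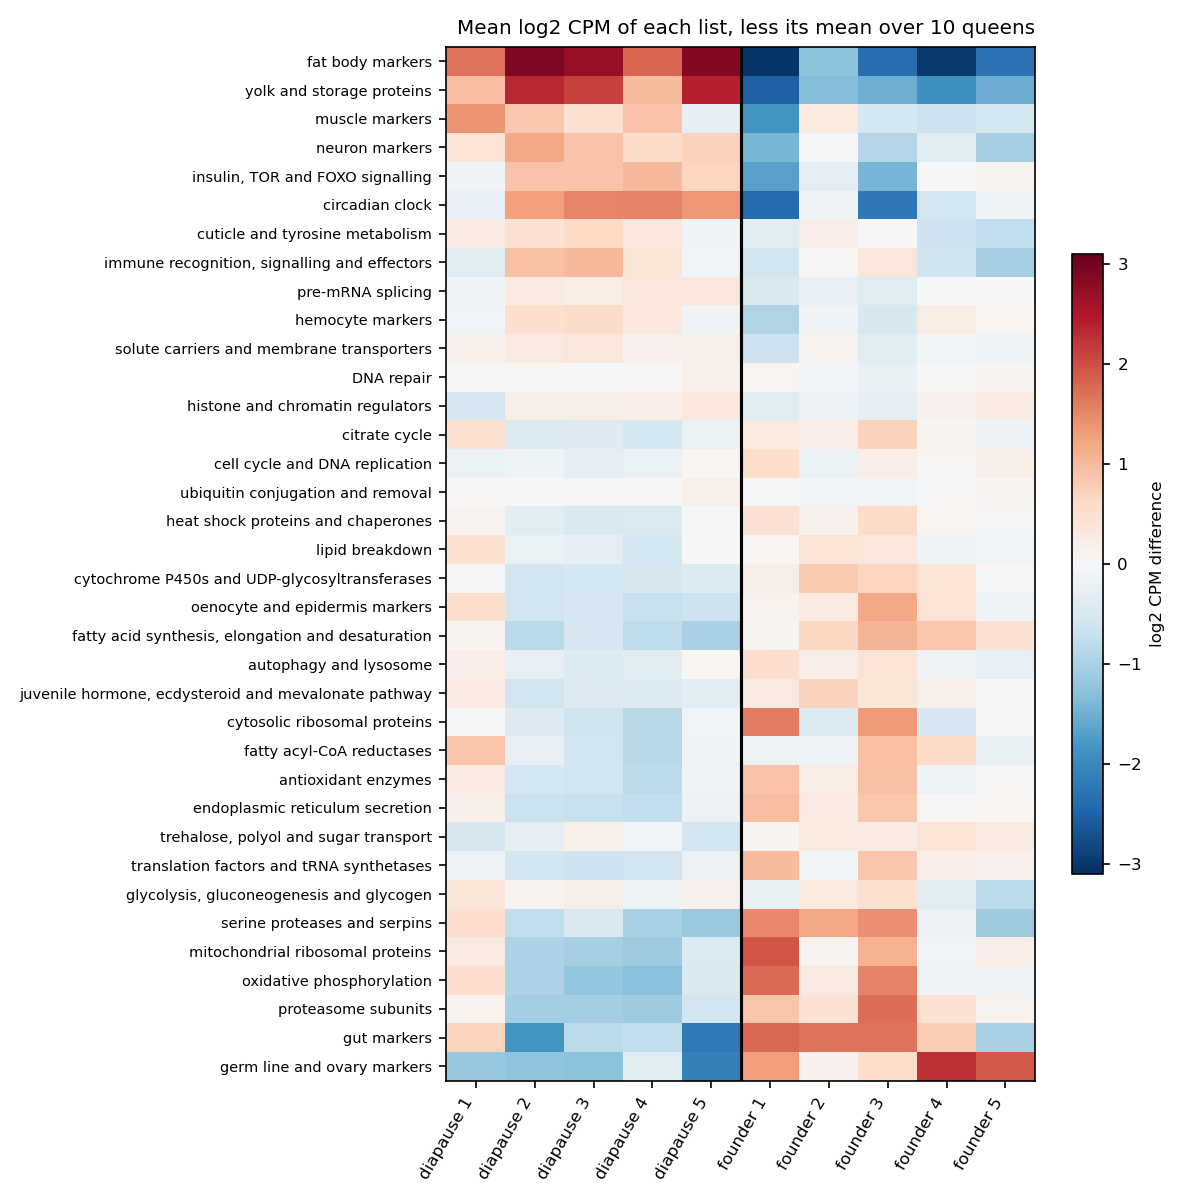
Mean log2 CPM of each gene list (rows) in each queen (columns: diapause 1 to 5, then founder post CO2 1 to 5), less the list's mean over the 10 queens, with red above and blue below that mean (colour bar, log2 units). Diapause queens 2 to 5 and founders 1 and 3 form the extremes for oxidative phosphorylation, from -1.28 in diapause queen 4 to 1.76 in founder 1, and diapause queen 1 is pale in most rows outside the fat body, muscle and germ line lists.

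In the pair whose egg layers were the older queens, nearly all genes called in both pairs moved in the same direction. Between mated queens and founder post diapause queens 2519 of 3793 genes were called (66.4%), 1357 higher in mated queens (35.8%) and 1162 lower (30.6%). Genes called in both pairs numbered 1998, and 1990 of them (99.6%) had the same sign, 1075 higher and 915 lower before laying; these 1990 were 76.3% of the calls between diapause and founder post CO2 and 79.0% of those between mated and founder post diapause. Across the 3793 genes the log2 fold changes of the pairs had a Pearson r of 0.861, given as a description, since genes are not replicates. The pairs share no queen, but both came from 1 study and the estimate of spread was common to both. Shared calls and r were taken in the full fit only, not without diapause queen 1 or by founder subset. The second pair also varied in 3′ to 5′ coverage, from -0.185 to 0.119 in founder post diapause queens and -0.0814 to 0.0849 in mated queens. Without founder post diapause queen 1, its calls numbered 1988 of 3800. Between mated and founder post diapause queens the log2 fold change was 6.42 ± 1.04 for vitellogenin (LOC100643258), 4.41 ± 1.05 for PEPCK, 1.16 ± 0.42 for cryptochrome (LOC100647270) and -2.48 ± 0.57 for piwi (LOC100646008). Oxidative phosphorylation had 0 genes higher and 30 lower of 33, and the proteasome 0 and 17 of 22.

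**Figure D5:**
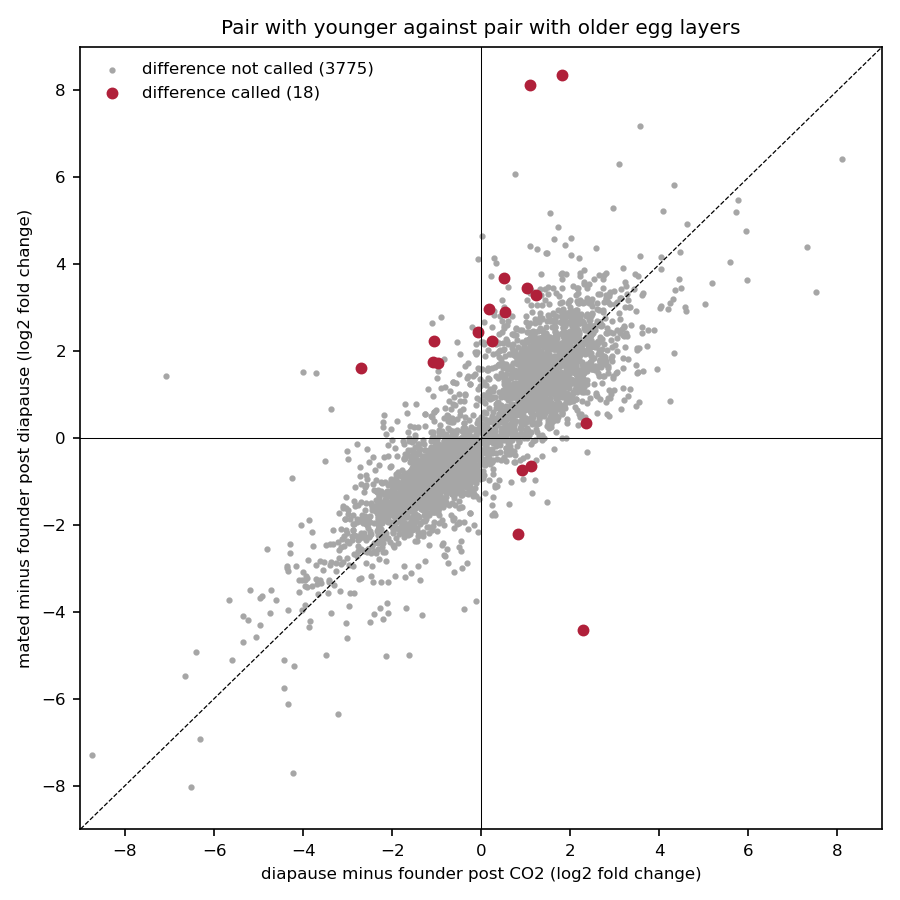
Log2 fold change of mated minus founder post diapause (y axis, older egg layers) against diapause minus founder post CO2 (x axis, younger egg layers) for 3793 genes; grey points are genes whose difference between the pairs was not called, red points the 18 that were called, and the dashed line marks equal change. The points follow the dashed line (Pearson r 0.861 across genes), and 2 red points near 8 on the y axis are fatty acyl-CoA reductases.

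The difference between the 2 pairs, tested as an interaction, was called for 18 genes (0.475%), 5 with the larger value in the diapause pair (0.132%) and 13 with the smaller (0.343%); 9 of the 18 were called between diapause and founder post CO2. The count varied with the settings: it was 0 with genetic line as a block, where 317 genes had an unadjusted p under 0.05, 65 by DESeq2, 180 without diapause queen 1 and 0 without founder post diapause queen 4. It also varied with the founders post CO2 kept. With founders 2, 4 and 5 alone it was 146 of 3805 genes (3.84%), 43 higher and 103 lower. With founders 1 and 3 alone it was 0 of 3819, where 956 had an unadjusted p under 0.05. In 8 genes the pairs were called in opposite directions, and for 6 of these the difference was called too. Alpha-methyldopa hypersensitive protein-like (LOC100648451), of a family of aromatic amino acid decarboxylases that act in cuticle formation, had 14.3, 29.2, 18.4, 24.4 and 33.5 CPM in diapause queens, against 37.3, 74.9, 274, 219 and 172 CPM in founders post CO2 (log2 fold change -2.69 ± 0.72), and averaged 286 ± 329.5 CPM in mated queens and 92.9 ± 49.3 CPM in founder post diapause queens (SD, n = 5 each; log2 fold change 1.61 ± 0.69). Mated queen 2, a library of only 586405 counts, held 869 CPM of this gene. The other mated queens held 84.2 to 192 CPM, against 54.0 to 165 CPM in founder post diapause queens. The adjusted p of the difference was 0.047 by edgeR. A subunit of NAD-dependent isocitrate dehydrogenase (LOC100642724), of the citrate cycle, was higher in diapause, at 271, 427, 357, 405 and 460.0 CPM, against 270.0, 161, 213, 175 and 198 CPM in founders post CO2 (log2 fold change 0.92 ± 0.24), and lower in mated queens than in founder post diapause queens (-0.74 ± 0.24; adjusted p of the difference 0.0229).

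The other 4 of the 6 were a RING finger cell growth regulator (LOC100643334, 1.13 ± 0.26 in the diapause pair and -0.65 ± 0.26 in the mated pair), contactin-like (LOC100645501, -1.08 ± 0.46 and 1.74 ± 0.47), a cell adhesion protein, cytochrome P450 305a1-like (LOC100647578, -0.96 ± 0.35 and 1.73 ± 0.35) and a hypothetical protein (LOC100650045, -1.06 ± 0.41 and 2.22 ± 0.43). Contactin-like, the P450 and the hypothetical protein each lost the call in the diapause pair when 1 of several queens was left out, and the hypothetical protein changed sign against founders 1 and 3. UDP-glucuronosyltransferase 2C1-like (LOC100646290), of a detoxifying family, rose in both pairs by different amounts, 1.24 ± 0.33 and 3.29 ± 0.35. The remaining genes of this paragraph were chosen after their values were seen. A pair of fatty acyl-CoA reductases was not called in diapause, LOC100650753 at 9.905, 8.34, 3.202, 3.101 and 10.6 CPM in diapause queens and 0.821, 1.55, 9.35, 2.82 and 1.97 CPM in founders post CO2, and LOC100647644 at 13.7, 9.03, 5.204, 6.98 and 23.3 CPM and 2.05, 1.24, 9.35, 2.35 and 1.69 CPM. In mated queens they averaged 397 ± 349 and 641 ± 567 CPM, against 1.44 ± 0.782 and 1.88 ± 1.54 CPM in founder post diapause queens (SD, n = 5 each). DGCR8-like (LOC100642999), a subunit of the complex that cuts microRNA precursors, rose by 2.35 ± 0.31 in diapause and was not called in mated queens (0.34 ± 0.30; adjusted p of the difference 0.0316). Glucose dehydrogenase-like (LOC100647448) rested on 1 library: it had 142, 2.78, 1.601, 5.43 and 0.932 CPM in diapause queens, and without queen 1 its log2 fold change was -1.32 in place of 2.29.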

How the data were processed

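Single-queen poly(A) RNA libraries of eviscerated abdomens were sequenced, and the authors deposited a table of raw read counts per exon-sized interval, 1 column per library and 22679 intervals. Trimmomatic, TopHat and DESeq are named in the submitters' processing notes, without roles or versions; the sources used here name no counting tool, strand setting or genome build, so a gene and an antisense partner may share reads. Intervals were summed per gene identifier to 3861 genes, of which 3534 were found in a RefSeq name table; 147 intervals (0.288% of counts) lay off the main scaffold of their gene. Coordinates are those of the interval names, written from 1. CPM are summed counts scaled to a library total of 1000000 with TMM factors.

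All 25 libraries, 5 per group, entered 1 edgeR quasi-likelihood fit (edgeR 4.0.16, R 4.3.3) with a term per group and filterByExpr, which removed 68 genes and left 20 residual degrees of freedom; the common coefficient of variation between queens was 51.4%. Contrasts were diapause minus founder post CO2, mated minus founder post diapause, and the difference of the 2, with Benjamini-Hochberg adjusted p under 0.05 over all tested genes as a call. The scripts were tested on simulated data. Replicates are separate queens. Same-line queens of the groups deviated together in 3 of 5 pairs (r over 0.1; range -0.370 to 0.589), so line was used as a block only in an alternative. Other alternatives were DESeq2 1.42.0, its size factors, upper quartile factors, no filter, each library left out, and subsets of libraries; the subsets by founder coverage were added after seeing the data.

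Named genes were, in each direction, the 8 called genes without overlap with the smallest p, the 4 called genes with the highest mean CPM, the 2 called members of each of the 36 lists with the smallest p, 4 set genes, and genes opposite in the 2 pairs; others are marked in the text. The comparison, lists and rule were chosen with earlier results of these data known. The 10 libraries held 2624582 to 3626206 counts, and genes with few counts are the least precise.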

Additional observations from a re-analysis of the deposited data

Results flagged for a closer look

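A single queen lay far from the other 4 of its group in 37 of 266 sets of 5 queens examined among the named genes, by Dixon's gap: the distance of the extreme queen from its nearest neighbour as a share of the whole range of log2 CPM, past 0.71. Chance gives about 1 in 20 such sets. Diapause queen 1 accounted for 21 of the 37, founder 2 for 5 and founder 3 for 3. Diapause queen 1 was the lowest of its group, with these gaps: casein kinase I isoform gamma-3 (LOC100642629) 0.727, ATP-binding cassette sub-family G member 1 (LOC100644985) 0.736, peroxiredoxin-5 (LOC100645223) 0.782, elongation of very long chain fatty acids protein 6 (LOC100646637) 0.802 and cryptochrome-1 (LOC100647270) 0.9. Others of this kind were acetylcholine receptor subunit alpha 2 (LOC100647301) 0.894, ribosomal protein S6 kinase alpha-5 (LOC100647851) 0.767, histone-lysine N-methyltransferase EHMT1 (LOC100648622) 0.841, innexin shaking-B (LOC100648671) 0.73 and DNA repair and recombination protein RAD54 (LOC100650016) 0.749. Others of this kind were jmjC domain-containing histone demethylation protein 1 (LOC100650431) 0.842, facilitated trehalose transporter Tret1 (LOC100650588) 0.768 and cyclin-dependent kinase 14 (LOC100652163) 0.897. It was the highest of its group for putative fatty acyl-CoA reductase CG5065 (LOC100643779) 0.859, malate dehydrogenase (LOC100646150) 0.714, 4-hydroxyphenylpyruvate dioxygenase (LOC100646582) 0.735, putative fatty acyl-CoA reductase CG5065 (LOC100648083) 0.713 and integrin beta-nu (LOC100648256) 0.72. Others of this kind were ubiquitin fusion degradation protein 1 (LOC100648660) 0.83, glyceraldehyde-3-phosphate dehydrogenase (LOC100648830) 0.737 and glutathione S-transferase omega-1 (LOC100650118) 0.74.

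In the other diapause queens the gap was 0.765 for defensin (Def) in queen 5, 0.895 for lipid storage droplets surface-binding protein 2 (LOC100643850) in queen 5, 0.792 for serine/threonine-protein kinase polo (LOC100645092) in queen 2, 0.747 for peroxisomal N(1)-acetyl-spermine/spermidine oxidase (LOC100649586) in queen 4 and 0.795 for heat shock protein 67B2 (LOC100650694) in queen 4. The lipid droplet protein of diapause queen 5 stood at 2071 CPM, against 499 to 579.6 CPM in the other 4. Among founders post CO2 the gap was 0.757 for DNA repair and recombination protein RAD54 (LOC100650016) in founder 1, 0.753 for jmjC domain-containing histone demethylation protein 1 (LOC100650431) in founder 1, 0.747 for probable cytochrome P450 305a1 (LOC100642209) in founder 2 and 0.751 for netrin receptor UNC5C (LOC100642219) in founder 2. It was also 0.777 for vitellogenin-6 (LOC100643258) in founder 2, 0.714 for peroxisomal N(1)-acetyl-spermine/spermidine oxidase (LOC100649586) in founder 2, 0.712 for hexamerin (LOC100650745) in founder 2 and 0.79 for polycomb protein eed-A (LOC100645978) in founder 3. It was also 0.734 for prefoldin subunit 2 (LOC100646096) in founder 3, 0.759 for MD-2-related lipid-recognition protein (LOC100649270) in founder 3 and 0.861 for larval cuticle protein LCP-17 (LOC100643233) in founder 4. Founder 2 was the lowest founder for vitellogenin-6-like and the highest for the hexamerin-like gene LOC100650745.

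The change between the 2 pairs differed, by the interaction term, in 7 named genes; the value is the log2 fold change of diapause minus founder post CO2 less that of mated minus founder post diapause. It was 1.66 for probable isocitrate dehydrogenase [NAD] subunit alpha (LOC100642724), 1.78 for cell growth regulator with RING finger domain protein 1 (LOC100643334), -2.83 for contactin (LOC100645501), -2.05 for UDP-glucuronosyltransferase 2C1 (LOC100646290), -2.7 for probable cytochrome P450 305a1 (LOC100647578), -4.31 for alpha-methyldopa hypersensitive protein (LOC100648451) and -3.28 for a hypothetical protein (LOC100650045). With genetic line as a block the difference was not called in any gene (0 of 3793; 317 with an unadjusted p under 0.05).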

How the results depend on the processing

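The count of genes called between diapause and founder post CO2 stayed within 1.5 times its value of 2609 under the scaling, filter, DESeq2, single-library and 10-library alternatives (2029 to 2786 with 1 library left out), and moved to 1311 against founders 2, 4 and 5 alone. Upper quartile scaling called 1054 higher and 1371 lower, the 10 libraries alone 1225 and 722. Members of any list called were 461 (68.5%, near the share over all genes), with 364 to 502 when 1 library was left out and 215 against founders 2, 4 and 5. Genes without overlap rose in number to 2102 without diapause queen 1. The difference between the pairs was called in 18 genes, in 0 to 180 with 1 library left out, in 65 by DESeq2, 30 without the filter on low counts, 66 without mated queen 2 and CO2-treated queen 3, which had the fewest counts, and 327 without those and diapause queen 1. With founders post CO2 2, 4 and 5 alone it was called in 146 genes, and with founders 1 and 3 alone in 0. Among 133 named genes, 28 lost their call against founders 2, 4 and 5; LOC100650045 reversed against founders 1 and 3 (0.41, adjusted p = 0.454). The cause was not tested in any of these.

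With genetic line as a block, 2528 genes were called in place of 2609 (1288 higher, 1240 lower), 2603 in place of 2519 between mated and founder post diapause, and 0 in place of 18 for the difference; 3 of 5 diapause queens correlated best with the founder of their line. In the 10 libraries with that block 2170 were called. Of the named genes 3 lost their call under the block. No intervals overlapped, so leaving such intervals out changed nothing. Depth limits low genes, and 5 single queens per group with a coefficient of variation of 51.4% limit small changes.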

Other observations

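Some named genes belong to groups not described above. Of 23 serine proteases and serpins 2 rose and 6 fell in diapause (median log2 fold change -1.26). Without diapause queen 1, 2 rose and 9 fell. With all queens, the 26.1% lower and 34.8% called were below the 34.2% and 68.8% over all genes. Serine protease gd-like (LOC100646207), whose Drosophila relative patterns the egg, had 137, 67.03, 72.5, 44.6 and 37.6 CPM in diapause queens, against 263, 363, 555, 374 and 355 CPM in founders, and did not overlap (log2 fold change -2.41 ± 0.37, edgeR adjusted p = 3.28e-05). Among amino acid carriers, sodium-dependent nutrient amino acid transporter 1-like (LOC100647552) had 22.4, 14.2, 13.6, 10.5 and 15.5 CPM in diapause queens and 37.7, 48.9, 57.2, 93.8 and 82.8 CPM in founders (log2 fold change -2.07 ± 0.36), and Y+L amino acid transporter 2-like (LOC100651208) fell by 2.03 ± 0.35. Integrins, the receptors that tie cells to the matrix, were divided: beta-PS-like (LOC100647633) rose by 1.46 ± 0.28 and alpha-PS2-like (LOC100649030) by 1.61 ± 0.50, whereas beta-nu-like (LOC100648256) fell by 1.10 ± 0.29.

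Chromatin and repair genes that rose included the histone methyltransferase EHMT1-like (LOC100648622), with 86.2, 238, 248, 258 and 217 CPM in diapause queens, against 18.9, 65.00, 14.7, 68.5 and 59.5 CPM in founders (log2 fold change 2.20 ± 0.47), a JmjC histone demethylase (LOC100650431, 1.98 ± 0.43) and RAD54-like (LOC100650016, 1.56 ± 0.31), of recombinational repair. The Polycomb protein eed-A-like (LOC100645978) and XRCC4-like (LOC100643613), of end joining, fell by 1.16 ± 0.30 and 1.62 ± 0.50. Proton pump subunits of the lysosome went both ways: the 16 kDa subunit (LOC100646343) rose by 1.40 ± 0.33, and subunit F (LOC100651333) fell by 1.60 ± 0.45. Of the highly expressed genes that fell, MD-2-related lipid-recognition protein-like (LOC100649270), of a lipid-binding family, had 4899, 1453, 1330.2, 998 and 2757 CPM in diapause queens and 5318, 5143, 17436, 4293 and 3649 CPM in founders; diapause queen 1 reached the founder range, and the call (log2 fold change -1.65 ± 0.62, adjusted p = 0.0231) was lost without diapause queen 2, 3 or 4 or founder 3.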
